A study of Mus musculus with 8 samples.

Results

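The collagen chains described here are the genes whose symbol in the deposited table has the form Col, a number, a and a number, without Col4a1, Col4a2, Col8a1, Col9a1 and Col10a1. The table names 25 of them among 49782 named genes. Their transcripts were measured by RNA sequencing in mesenchymal stem cells (MSc) from the femora and tibiae of 8 mice, 4 Has-tKO and 4 wildtype (C57Bl6/J). Has-tKO mice lack Has1 and Has3 constitutively and lose Has2 after 4-hydroxytamoxifen, so that all hyaluronan synthases are targeted, and the submitters state that they checked the loss of Has2 on hyaluronan and on Has2 transcript. Cells of both genotypes received 4-hydroxytamoxifen for 48 h in passages 2 and 3 and were harvested on day 7 of osteogenic culture, so both carry the exposure to the drug. The labels do not state which line drives Cre, whether wildtype carried it, the strain background of Has-tKO, or the age and sex of the mice. Each library comes from the cells of 1 mouse, and the study asked how the loss of hyaluronan bears on osteogenic differentiation.

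Collagens are secreted proteins of 3 chains wound into a triple helix, in which glycine recurs at a fixed spacing. Fibrillar collagens form the cross-banded fibrils of bone, skin and cartilage. FACIT collagens (fibril-associated collagens with interrupted triple helices) sit on the surface of those fibrils, network collagens form sheets or lattices, beaded filament collagens form microfibrils around cells, and transmembrane collagens stay anchored in the plasma membrane. In bone the fibrils are mainly collagen I, on which mineral is laid down. Cartilage holds fibrils of collagens II, IX and XI.

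Levels are FPKM as deposited (fragment counts corrected for transcript length and library total), given per library in the order of replicates 1 to 4, or as mean ± SD with n = 4 per genotype. A difference is the mean log2(FPKM + 1) of Has-tKO less that of wildtype, from a limma model over the 9915 named genes that reached 1 FPKM in 4 or more libraries, and a gene was called at a Benjamini-Hochberg adjusted p under 0.05. In that fit 176 genes were called (157 higher and 19 lower in Has-tKO), and the median difference over all tested genes was 0.16. After median-ratio scaling of the libraries the median was 0.01 and 279 of 9812 genes were called (171 higher, 108 lower), so scaled values are given beside the unscaled ones. Size factors were 0.990 to 1.11 in 7 libraries and 0.684 for wildtype 1, whose values scaling therefore raises most. That library had 8327 genes at 1 FPKM or more, against 9677 to 10353 in the others. Loci without a name held 61.5% of the FPKM of wildtype 1 and 56.4% of that of Has-tKO 4, against 45.4% to 48.7% in the others. These libraries also had the lowest mean correlation with their own group, 0.916 for wildtype 1 and 0.940 for Has-tKO 4. Of the targeted genes only Has3 is named in the table, at 0.663, 0.576, 0.621 and 0.150 FPKM in Has-tKO and 0.236, 0.415, 0.466 and 0.394 FPKM in wildtype. Since the deleted part of Has3 is not given, this checks no label.

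Mouse has 44 collagen chain genes in the GENCODE M21 annotation, of which 39 remain without the 5 left out. No locus of the table carries the name of 14 of the 39. Among fibrillar collagens these are 7 of 11 chains: Col1a1, Col1a2 and Col3a1, the main chains of bone and connective tissue, with Col5a1, Col5a2, Col5a3 and Col11a2. Among FACIT collagens Col12a1, Col14a1, Col16a1 and Col20a1 carry no name, among network collagens Col8a2, among beaded filament collagens Col6a2 and among multiplexins Col18a1. All 4 transmembrane chains are named. Nothing is said here about the level of the 14 chains. No named member lies within 10 Mb of Has1, Has2 or Has3.

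Of the 25 named chains, the 10 that were tested did not pass the limma threshold in the unscaled fit. The filter on low values was passed by 10 chains, and 0 of them were called by limma, where 1.78% of all tested genes were. The 5 chains that the rule leaves out are the ones that were called in this table (3 higher and 2 lower, of 15 collagen chains tested), so a count of 0 among the others is set by the choice of members. At an unadjusted p under 0.05 there were 4 chains, Col9a2, Col9a3 and Col11a1 with lower and Col15a1 with higher levels in Has-tKO, against 16.7% of all tested genes. After scaling limma called 1 of 10, Col24a1, against 2.84% of all genes, and 6 had an unadjusted p under 0.05, against 18.6%. The other 15 chains lay under the filter. A fit without the filter called 0 of the 24 chains with any value above 0, against 0.00736% of 27170 genes.

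The sign of the difference was negative for 8 of 10 tested chains, where 26.7% of all tested genes had a negative sign. After scaling it was negative for 9 of 10, where 48.5% of all tested genes were. The median over the 10 was -0.19 beside 0.16 over all tested genes, and -0.40 beside 0.01 after scaling. The rule leaves out 5 called chains, 3 higher and 2 lower, so the shares and all medians here depend on the choice of members too. By class the medians were -0.25 for 4 fibrillar chains and -0.72 for 2 FACIT chains. The single network chain had -0.15, the 2 beaded filament chains a median of -0.10 and the single multiplexin 0.68. The class of transmembrane collagens has no median, since none of its 4 chains passed the filter. In bulk RNA, fewer cells of a type and less RNA per cell cannot be told apart.

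**Figure D1:**
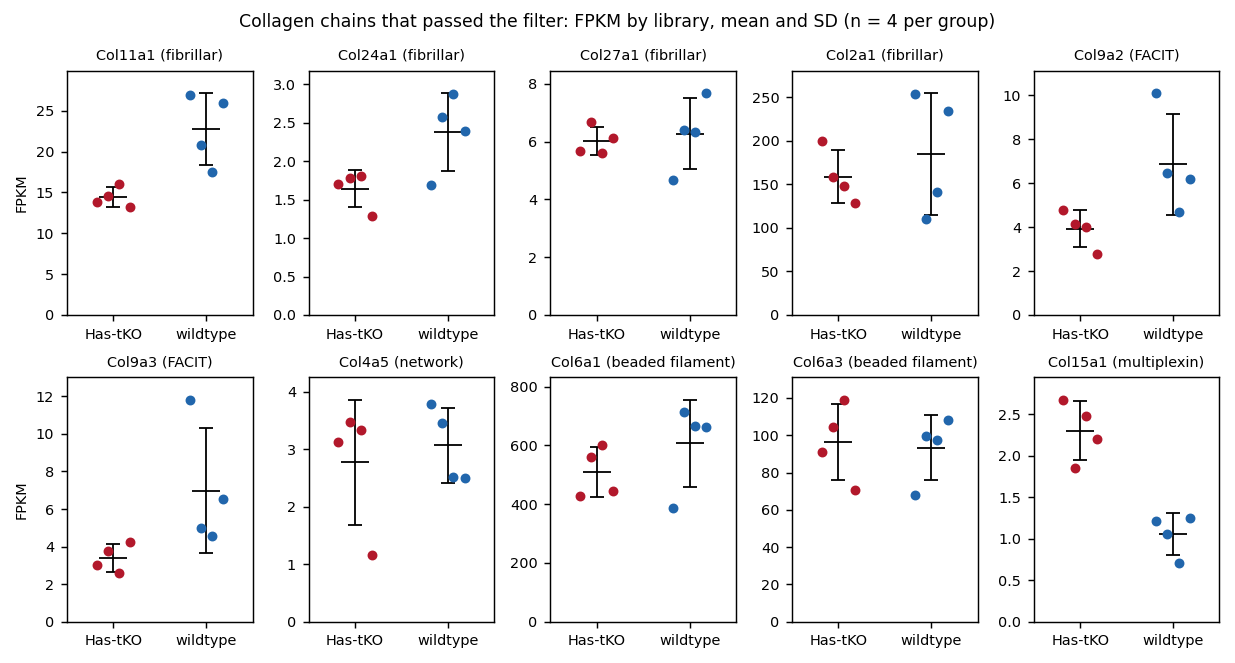
FPKM of the 10 collagen chains that passed the filter, 1 panel per chain with its class, each with its own linear axis from 0. Points are libraries (Has-tKO red, wildtype blue), horizontal lines the means and bars the SD (n = 4 per genotype). The Has-tKO libraries lie below all wildtype libraries for Col11a1 and Col9a3 and above them for Col15a1, and the other 7 chains overlap.

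Among fibrillar collagens, Col11a1 had the lower levels in Has-tKO in every library. It encodes a chain of collagen XI, which sits inside cartilage fibrils and limits their width. Col11a1 had 13.8, 14.5, 16.0 and 13.3 FPKM in Has-tKO, against 26.9, 20.8, 17.5 and 25.9 FPKM in wildtype. The 4 Has-tKO libraries lie close together and below all wildtype libraries, the nearest of which is wildtype 3. Groups that do not overlap, with Has-tKO below, were seen for 1.53% of all tested genes, and after scaling, when Col11a1 did not overlap either, for 5.86%. The means were 14.4 ± 1.20 FPKM in Has-tKO and 22.8 ± 4.40 FPKM in wildtype, a difference of -0.61 (SE 0.17, 95% interval -0.99 to -0.24, limma adjusted p = 0.0924), and -0.81 after scaling (adjusted p = 0.0958). Without wildtype 3, the library nearest to Has-tKO, it was called (-0.72, adjusted p = 0.0472), in a fit that called 3.58% of all genes. Over 26 alternative fits Col11a1 was called in 2, with limma adjusted p values from 0.0427 to 0.291.

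Col24a1, a fibrillar chain that is made during bone formation in the mouse embryo, was called only after scaling. Its levels were 1.71, 1.78, 1.81 and 1.28 FPKM in Has-tKO, against 1.69, 2.58, 2.88 and 2.39 FPKM in wildtype. Wildtype 1 lies among the Has-tKO libraries and the other 3 wildtype libraries above them. On the scaled values, 1.58, 1.61, 1.65 and 1.23 in Has-tKO and 2.47, 2.38, 2.75 and 2.41 in wildtype, the groups do not overlap. The difference was -0.35 (SE 0.16, limma adjusted p = 0.312), and Col24a1 fell by 0.48 on the log2 scale after scaling (SE 0.11, adjusted p = 0.0499). With any 1 of the 8 libraries left out the scaled difference was -0.50 to -0.42 and no longer called. For example, limma adjusted p was 0.0511 without wildtype 1 and 0.0996 without Has-tKO 4. Those 2 fits called 3.41% and 0.603% of all genes, against 2.84% with all libraries. Over the 8 fits the share ran from 0.249% to 3.61%.

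Col2a1, the chain of the main cartilage collagen, spread widely within wildtype. It had 200, 158, 148 and 129 FPKM in Has-tKO, against 254, 110, 141 and 234 FPKM in wildtype. The Has-tKO libraries all fall inside the wildtype range. The means were 159 ± 30.2 FPKM in Has-tKO and 185 ± 70.2 FPKM in wildtype (difference -0.15, 95% interval -0.72 to 0.42, limma adjusted p = 0.798, and -0.36 after scaling). With wildtype 1 left out the sign turned, at 0.029.

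Col27a1, a fibrillar chain of cartilage that is needed for the growth of long bones, had 5.69, 6.68, 5.60 and 6.12 FPKM in Has-tKO, against 4.69, 6.39, 6.33 and 7.69 FPKM in wildtype. All Has-tKO libraries again fall inside the wildtype range. The difference was -0.04 with a 95% interval of -0.40 to 0.32 (limma adjusted p = 0.927), and -0.21 after scaling (adjusted p = 0.363).

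**Figure D2:**
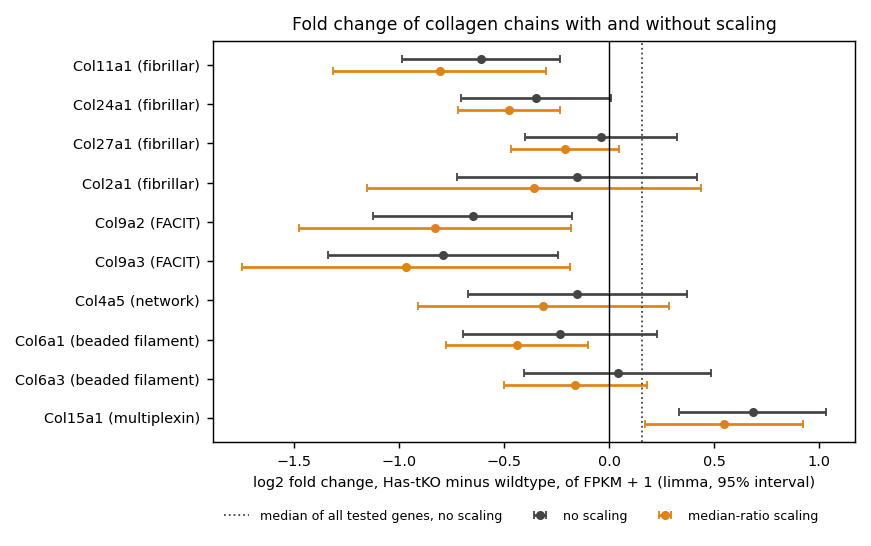
Difference between Has-tKO and wildtype on the log2(FPKM + 1) scale for the 10 tested chains, without scaling (grey) and after median-ratio scaling (orange), with limma 95% intervals not adjusted for the number of genes. The dotted line is the unscaled median of all tested genes, 0.16. Scaling moves every chain to the left, and the unscaled intervals of Col11a1, Col9a2, Col9a3 and Col15a1 do not reach 0.

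Both tested FACIT chains had lower means in Has-tKO. Col9a2 and Col9a3 encode 2 of the chains of collagen IX, which coats cartilage fibrils. The third, Col9a1, is not among the members and was one of the 5 called chains. It had 1.58, 3.64, 1.74 and 2.57 FPKM in Has-tKO, against 5.63, 4.26, 4.99 and 5.59 FPKM in wildtype (difference -0.89, limma adjusted p = 0.0488).

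Col9a2 had 4.79, 4.13, 3.99 and 2.78 FPKM in Has-tKO, against 10.1, 6.46, 4.67 and 6.20 FPKM in wildtype. Has-tKO 1 lies just above wildtype 3, so the groups overlap by that 1 pair. The means were 3.92 ± 0.840 FPKM in Has-tKO and 6.86 ± 2.31 FPKM in wildtype (difference -0.65, SE 0.22, 95% interval -1.12 to -0.18, limma adjusted p = 0.149). After scaling the groups did not overlap (difference -0.83, adjusted p = 0.165).

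Col9a3 had 3.01, 3.75, 2.61 and 4.23 FPKM in Has-tKO, against 11.8, 5.004, 4.56 and 6.55 FPKM in wildtype. All Has-tKO libraries lie below all wildtype libraries, and wildtype 1 stands far above the rest. The means were 3.40 ± 0.729 FPKM in Has-tKO and 6.98 ± 3.34 FPKM in wildtype (difference -0.79, SE 0.25, 95% interval -1.34 to -0.24, limma adjusted p = 0.130, and -0.97 with adjusted p = 0.178 after scaling). Without wildtype 1 the difference was -0.54 for Col9a3 and -0.47 for Col9a2. Col9a3 overlaps Tcfl5 on the opposite strand, and since the library type keeps no strand, reads of the overlap cannot be assigned. Tcfl5 itself was tested, at 1.44 ± 0.667 FPKM in Has-tKO and 1.30 ± 0.191 FPKM in wildtype (limma adjusted p = 0.905).

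The other named FACIT chains were near 0. Col22a1, a collagen of tissue junctions such as that of muscle and tendon, had 0.309, 0.249, 0.287 and 0.450 FPKM in Has-tKO, against 0.272, 0.187, 0.306 and 0.212 FPKM in wildtype. Col19a1 was at 0.0136 FPKM in Has-tKO 1 and listed at 0 in the other Has-tKO libraries, against 0.0630 FPKM in wildtype 2, 0.0211 FPKM in wildtype 4 and 0 in the others.

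Among multiplexins, Col15a1 had the larger of the 2 positive differences among the 10 tested chains. It encodes collagen XV, a heparan or chondroitin sulfate proteoglycan that lies next to basement membranes. Its levels were 2.68, 1.86, 2.48 and 2.20 FPKM in Has-tKO, against 1.22, 1.05, 0.709 and 1.26 FPKM in wildtype. Every Has-tKO library lies above every wildtype library, which held for 12% of all tested genes. The means were 2.30 ± 0.358 FPKM in Has-tKO and 1.06 ± 0.250 FPKM in wildtype, a difference of 0.68 (SE 0.16, 95% interval 0.33 to 1.03, limma adjusted p = 0.0550). After scaling the difference was 0.55 (adjusted p = 0.119), and the groups overlapped, since wildtype 1 at 1.78 passed Has-tKO 2 at 1.68. On scaled values 5 of the 10 chains had all Has-tKO libraries below all wildtype libraries, where 5.86% of all genes did. These were Col11a1, Col24a1, Col9a2, Col9a3 and Col6a1. The Has-tKO libraries were on top for 0 of the 10, where 7.16% of all genes had them there. Of the chains left out by the rule, Col8a1 had them on top, and Col9a1 and Col10a1 had them below. Without wildtype 1 Col15a1 was called (0.72, adjusted p = 0.0331), in a fit that called 3.55% of all genes. Over 25 alternative fits it was called in 3, with limma adjusted p values from 0.0331 to 0.299.

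The promoters of Col11a1, Col9a2 and Col15a1 are shown because these chains hold the lowest unadjusted p values in each direction for which a promoter sequence is at hand. Each window runs from 250 bases before to 50 bases after the RefSeq start on GRCm38.p6, 5′ to 3′ on the strand of the gene, with GC boxes (GGGCGG on either strand) in capitals. The Col11a1 window is chr3:114030290-114030589, the Col9a2 window chr4:121039316-121039615 and the Col15a1 window chr4:47207762-47208061, all on the plus strand.
Col11a1: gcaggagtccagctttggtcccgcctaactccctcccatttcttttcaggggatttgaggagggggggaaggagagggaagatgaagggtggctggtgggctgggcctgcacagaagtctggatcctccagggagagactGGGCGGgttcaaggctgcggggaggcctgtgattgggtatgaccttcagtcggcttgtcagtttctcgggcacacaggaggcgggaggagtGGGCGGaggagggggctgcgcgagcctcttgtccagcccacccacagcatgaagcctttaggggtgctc
Col9a2: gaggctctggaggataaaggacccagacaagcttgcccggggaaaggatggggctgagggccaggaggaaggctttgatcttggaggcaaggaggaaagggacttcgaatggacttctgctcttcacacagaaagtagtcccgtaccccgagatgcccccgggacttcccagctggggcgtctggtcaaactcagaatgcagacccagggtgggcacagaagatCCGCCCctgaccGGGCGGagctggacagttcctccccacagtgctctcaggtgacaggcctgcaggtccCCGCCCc
Col15a1: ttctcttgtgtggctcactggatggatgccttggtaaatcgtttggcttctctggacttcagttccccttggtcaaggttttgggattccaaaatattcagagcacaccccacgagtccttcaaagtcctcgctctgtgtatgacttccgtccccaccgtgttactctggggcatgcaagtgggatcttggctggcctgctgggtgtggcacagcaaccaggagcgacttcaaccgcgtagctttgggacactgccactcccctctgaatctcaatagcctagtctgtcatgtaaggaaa

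The Col11a1 window holds 2 GC boxes and the Col9a2 window 3, and the Col15a1 window has 0. Over all 32851 RefSeq promoter windows of the same length, 35.7% hold at least 1. The G and C content is 62.3% for Col11a1, 61.7% for Col9a2 and 52.3% for Col15a1, beside a median of 52.7% over all windows. A TATA box (TATAAA on either strand) is in none of the 3 windows and in 13.6% of all. The core of SOX sites (ACAATG or ACAAAG on either strand), the motif family of the cartilage factor Sox9, is in none of the 3 and in 28.6% of all. The AP-1 site TGANTCA, the same on both strands, is in none of the 3 and in 7.81% of all. No 2 of the GC boxes overlap. A promoter sequence was found for 20 of the 25 named chains and 8 of the 10 tested ones.

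The network chain Col4a5 did not pass the threshold. It encodes an alpha chain of collagen IV, the sheet-forming collagen of basement membranes. Col4a5 had 3.12, 3.48, 3.34 and 1.16 FPKM in Has-tKO, against 3.79, 3.46, 2.52 and 2.50 FPKM in wildtype. Has-tKO 4 stands far below the other 7 libraries, and the other Has-tKO libraries fall inside the wildtype range. The difference was -0.15 (95% interval -0.67 to 0.37, limma adjusted p = 0.777), and it turned to 0.10 without Has-tKO 4. For comparison, the collagen IV chains left out, Col4a1 (difference 0.78, adjusted p = 0.0268) and Col4a2 (0.71, adjusted p = 0.0395), were called as higher in Has-tKO, though not after scaling (adjusted p = 0.0983 for Col4a1 and 0.138 for Col4a2). A test of the difference between these chains and Col4a5 was not made.

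The remaining collagen IV chains lay under the filter. Col4a3, which pairs with Col4a4 and Col4a5 in the basement membrane of the kidney, reached 0.0329, 0.0758, 0.0350 and 0.149 FPKM in Has-tKO, against 0, 0.0145, 0.0313 and 0.0216 FPKM in wildtype. Col4a4 was at most 0.113 FPKM in Has-tKO and 0.0533 FPKM in wildtype. Col4a6, which starts next to Col4a5 on the other strand, had 0.162, 0.210, 0.0715 and 0.458 FPKM in Has-tKO, against 0, 0, 0.0655 and 0.143 FPKM in wildtype. For Col4a3 all Has-tKO libraries lie above all wildtype libraries, narrowly (0.0329 FPKM in Has-tKO 1 against 0.0313 FPKM in wildtype 3). This held for 12% of the genes past the filter. In the fit without a filter Col4a3 had adjusted p = 0.576 and Col4a6 adjusted p = 0.558 (limma). That fit called 0.00736% of 27170 genes, so it could hardly detect a difference at these levels.

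Transmembrane collagens were present at low levels, and none passed the filter. Col23a1, a shed transmembrane collagen, had 0.924, 1.23, 1.28 and 0.531 FPKM in Has-tKO, against 0.467, 0.767, 0.704 and 0.900 FPKM in wildtype. It passed 1 FPKM in 2 libraries, both Has-tKO, and the groups overlap through Has-tKO 4. Col13a1, a collagen of cell adhesion sites and of the neuromuscular junction, had 0.156, 0.0295, 0.143 and 0.552 FPKM in Has-tKO, against 0.357, 0.271, 0.272 and 0.435 FPKM in wildtype. Here 3 Has-tKO libraries lie below and Has-tKO 4 lies above all wildtype libraries.

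Col17a1, the collagen of epithelial hemidesmosomes, had 0.291, 0.333, 0.425 and 0.372 FPKM in Has-tKO, against 0, 0.198, 0.318 and 0.490 FPKM in wildtype. Col25a1, known from brain and from muscle innervation, stayed at or below 0.0432 FPKM in all 8 libraries. In the fit without a filter the adjusted p was 0.725 for Col23a1, Col13a1 and Col17a1 and 0.882 for Col25a1 (limma). That fit called 0.00736% of 27170 genes, so it could hardly detect a difference at these levels, and the log2(FPKM + 1) scale understates one.

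**Figure D3:**
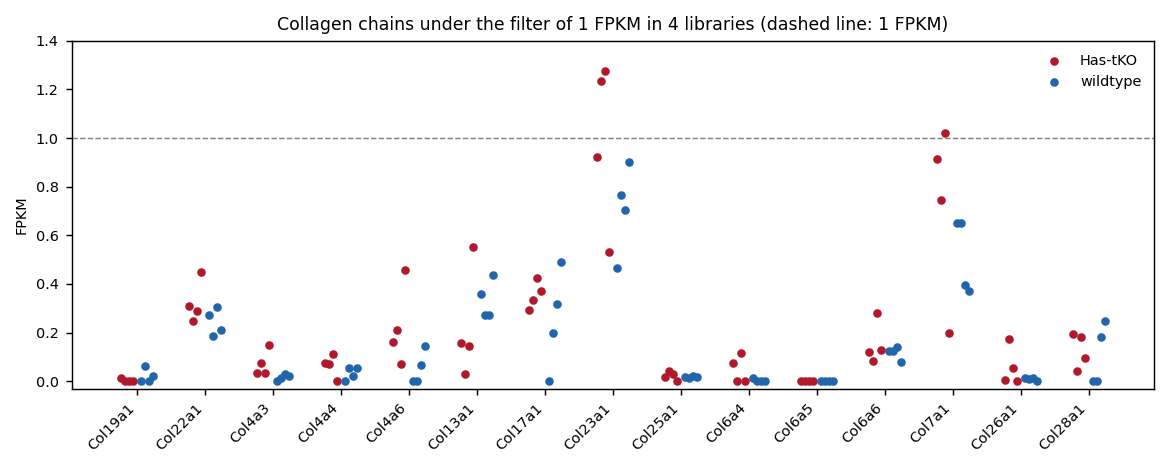
FPKM of the 15 named chains under the filter (linear axis), Has-tKO libraries in red to the left of wildtype libraries in blue. Col23a1 and Col7a1 are the only 2 of them with a library above 1 FPKM (dashed line), and Col6a5 is listed at 0 in all 8 libraries.

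Collagen VI forms beaded filaments around many mesenchymal cells, and its tested chains did not pass the threshold. Col6a1 had 428, 559, 600 and 444 FPKM in Has-tKO, against 388, 714, 666 and 662 FPKM in wildtype. Wildtype 1 lies below all Has-tKO libraries and the other 3 wildtype libraries above them. The means were 508 ± 84.9 FPKM in Has-tKO and 607 ± 148 FPKM in wildtype (difference -0.23, 95% interval -0.69 to 0.23, limma adjusted p = 0.600). After scaling the groups did not overlap and the difference was -0.44 (adjusted p = 0.159).

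Col6a3, the chain with the longest globular ends and the source of endotrophin, had 91.3, 105, 119 and 70.7 FPKM in Has-tKO, against 68.1, 99.7, 97.6 and 108 FPKM in wildtype. The groups overlap over most of their range. The difference was 0.04 (95% interval -0.40 to 0.49, limma adjusted p = 0.934) and -0.16 after scaling (adjusted p = 0.616), so its sign depends on the scaling. Of the alternative partner chains, Col6a6 had 0.121, 0.0816, 0.279 and 0.126 FPKM in Has-tKO, against 0.124, 0.123, 0.141 and 0.0796 FPKM in wildtype. Col6a4 was above 0 in 3 libraries, at 0.0730 FPKM in Has-tKO 1, 0.117 FPKM in Has-tKO 3 and 0.0137 FPKM in wildtype 1, and Col6a5 was listed at 0 in all 8.

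The remaining named chains lay under the filter as well. Col7a1, the anchoring fibril collagen of skin, had 0.913, 0.745, 1.02 and 0.197 FPKM in Has-tKO, against 0.653, 0.653, 0.398 and 0.372 FPKM in wildtype. The first 3 Has-tKO libraries lie above and Has-tKO 4 lies below all wildtype libraries. Col28a1, a collagen found around peripheral nerves, had 0.194, 0.0408, 0.183 and 0.0961 FPKM in Has-tKO, against 0, 0, 0.181 and 0.246 FPKM in wildtype. Col26a1 was at most 0.176 FPKM in Has-tKO and 0.0143 FPKM in wildtype.

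The balance between chains that assemble together does not depend on the scaling of a library. The ratios were chosen after the levels had been seen, and 3 were computed as log2 of FPKM over FPKM. Col11a1 over Col2a1 was -3.86, -3.45, -3.21 and -3.28 in Has-tKO, against -3.24, -2.40, -3.01 and -3.18 in wildtype. Most Has-tKO libraries lie at the low end, with an overlap through wildtype 1. The difference was -0.49 (exact permutation p = 0.0571, two-sided, 0.129 after Benjamini-Hochberg adjustment over the 3 ratios). Col6a3 over Col6a1 averaged -2.41 ± 0.18 in Has-tKO and -2.68 ± 0.15 in wildtype (SD, n = 4 each), with a difference of 0.28 (exact permutation p = 0.0857, adjusted 0.129). Col9a2 over Col9a3 averaged 0.20 ± 0.59 in Has-tKO and 0.03 ± 0.25 in wildtype, with a difference of 0.18 (exact permutation p = 0.600, adjusted 0.600). None of the 3 passed 0.05 in the exact permutation test, where the smallest p that 4 against 4 allows is 0.0286. FPKM is scaled to length, but merged loci can hold more than 1 gene, so the ratios serve for comparing genotypes and not for the make-up of the fibril.

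Some markers of other cell types differed between the genotypes, and their part in the collagen values was not tested. For cartilage, 6 of 11 chondrocyte markers were tested, of which limma called 1 as lower (Fgfr3, a growth factor receptor) and 0 as higher, and 2 as lower after scaling, beside 1.78% of all tested genes and 2.84% after scaling. An unadjusted p under 0.05 was found for 5, all lower, in either fit, beside 16.7% of all tested genes and 18.6% after scaling. The other tested marker, Sox5, had a positive difference (0.12, and 0.03 after scaling). The summed level of the 8 named chondrocyte markers was 28.5 to 49.4 FPKM in Has-tKO and 57.8 to 99.6 FPKM in wildtype. Sox9, the transcription factor that drives cartilage collagens, had 6.49, 7.89, 8.09 and 5.97 FPKM in Has-tKO, against 7.65, 16.7, 13.8 and 15.3 FPKM in wildtype (limma adjusted p = 0.0966, and 0.0117 after scaling). Acan, Comp and Sox6 carry no name in the table. For macrophages, limma called 3 of 17 tested markers as higher and 0 as lower, beside 1.78% of all tested genes. After scaling it called 3 and 0, beside 2.84%. All 17 had higher means in Has-tKO, where 26.7% of all tested genes had a negative difference without scaling. An unadjusted p under 0.05 was found for all 17, beside 16.7% of all tested genes, and for 14 after scaling, beside 18.6%. The sum of the 18 named macrophage markers was 664 to 1077 FPKM in Has-tKO and 391 to 669 FPKM in wildtype. These ranges overlap through Has-tKO 3 (664 FPKM) and wildtype 3 (669 FPKM). The largest single part of the sum is C1qb (mean 290 FPKM in Has-tKO and 161 FPKM in wildtype, limma adjusted p = 0.110). No named marker of either list is at 0 in all libraries.

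Other marker lists bear on the label of the cells. Their counts of called genes stand beside 1.78% of all tested genes, and 2.84% after scaling. The osteoblast list had 6 of 10 markers tested and 0 called (2 lower after scaling). It summed to 177 to 262.3 FPKM in Has-tKO and 254 to 539 FPKM in wildtype. Most of that sum is Ibsp (mean 147 FPKM in Has-tKO and 296 FPKM in wildtype). Of the 6 tested, 5 had a negative difference and 1, Dmp1, a positive one (0.62). Contractile and mural markers, with 1 of 5 called as higher, summed to 153 to 279 FPKM in Has-tKO and 69.0 to 147 FPKM in wildtype. Most of that sum is Acta2 (mean 167 FPKM in Has-tKO and 91.3 FPKM in wildtype). Of the 5 tested, 4 had a positive difference and 1, Rgs5, a negative one (-0.40). After scaling Des was negative as well (-0.02). Fibroblast and stromal markers, with 0 of 5 called, summed to 375 to 560 FPKM in Has-tKO and 284 to 896 FPKM in wildtype. Most of that sum is Lum (mean 349 FPKM in Has-tKO and 540 FPKM in wildtype). Of the 5, 3 had a negative and 2 a positive difference. After scaling all 5 were negative, beside 48.5% of all tested genes. Of these, 2 (Lum and Fap) had an unadjusted limma p under 0.05, beside 18.6%. Endothelial markers were near 0, with a sum of at most 1.14 FPKM in Has-tKO and 0.587 FPKM in wildtype, and of the adipocyte markers 2 of 6 were tested and 0 called.

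**Figure D4:**
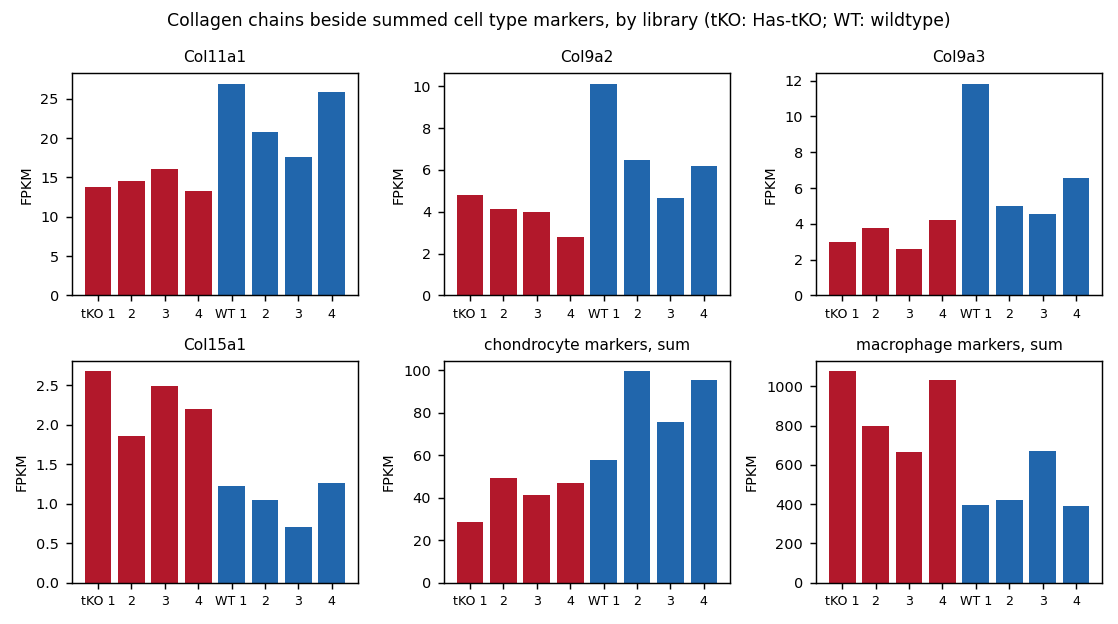
FPKM in each library of the 4 collagen chains with an unadjusted p under 0.05, beside the summed FPKM of 8 named chondrocyte markers and of 18 named macrophage markers. Bars are libraries (Has-tKO red, wildtype blue) on linear axes from 0. All values are unscaled, and each Has-tKO bar of the chondrocyte sum (28.5 to 49.4 FPKM) is shorter than each wildtype bar (57.8 to 99.6 FPKM). The macrophage sums overlap, with wildtype 3 (669 FPKM) above Has-tKO 3 (664 FPKM).

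Collagen chains are hydroxylated, glycosylated and folded in the endoplasmic reticulum, trimmed of their propeptides outside the cell and crosslinked by lysyl oxidases. Of 36 genes of these steps 27 are named in the table and 25 were tested. Without scaling limma called 0 of 25, beside 1.78% of all tested genes, and 9 had an unadjusted p under 0.05 (6 lower and 3 higher), beside 16.7%. After scaling it called 4 as lower and 0 as higher, beside 2.84% of all genes, and 15 lower and 3 higher had an unadjusted p under 0.05, beside 18.6%. The median difference was -0.18 beside 0.16 over all tested genes, and -0.38 beside 0.01 after scaling. Crtap, Fkbp10, Lox, Mia3, P3h4, P4ha3, Plod1, Sec23a and Serpinh1 carry no name.

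The 4 genes called as lower after scaling act at different steps, and all 4 had negative differences without scaling too. Plod2, the lysyl hydroxylase of collagen ends that sets the type of crosslink, had 17.9, 23.1, 24.0 and 14.8 FPKM in Has-tKO, against 19.1, 33.8, 34.6 and 34.1 FPKM in wildtype. Wildtype 1 is the one wildtype library inside the Has-tKO range. The difference was -0.57 (limma adjusted p = 0.223) and -0.77 after scaling (SE 0.15, adjusted p = 0.0311). Plod2 was called without scaling once wildtype 1 was left out (-0.77, adjusted p = 0.0331), in a fit that called 3.55% of all genes.

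Pcolce2, an enhancer of propeptide removal, had 1.84, 4.26, 4.25 and 1.71 FPKM in Has-tKO, against 4.46, 7.21, 7.11 and 5.71 FPKM in wildtype, without overlap (difference -0.88, limma adjusted p = 0.0966, and -1.04 with adjusted p = 0.0385 after scaling). P3h2, a prolyl 3-hydroxylase, had 0.907, 1.60, 1.46 and 0.599 FPKM in Has-tKO, against 1.93, 2.26, 2.97 and 2.12 FPKM in wildtype, again without overlap (-0.65, limma adjusted p = 0.104, and -0.78 with adjusted p = 0.0427 after scaling). Adamts3, a protease that removes amino-terminal propeptides of fibrillar collagens, had 0.856, 1.64, 1.33 and 1.03 FPKM in Has-tKO, against 1.62, 2.19, 2.39 and 2.63 FPKM in wildtype (-0.54, limma adjusted p = 0.133, and -0.66 with adjusted p = 0.0345 after scaling). In the 8 scaled fits with 1 library left out, Plod2 was called in 3 (difference -0.85 to -0.65) and Pcolce2 in 2 (-1.18 to -0.89). Adamts3 was called in 2 (-0.73 to -0.58) and P3h2 in 0 (-0.86 to -0.65). Those 8 fits called 0.249% to 3.61% of all genes, against 2.84% with all libraries.

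Of the other 21 tested genes of synthesis none was called in either fit. The 4 described next had the smallest p in the unscaled fit, 3 with higher and 1 with lower means in Has-tKO. After scaling the smallest p belonged to Plod3 (-0.38), Adamts2 (-0.38) and P4ha1 (-0.41), with lower means, and then to Loxl4 (0.41), at limma adjusted p values of 0.0754 to 0.108. Tmem38b, a potassium channel of the endoplasmic reticulum needed for collagen folding in bone, had 4.13, 2.52, 3.93 and 3.87 FPKM in Has-tKO, against 1.95, 1.67, 1.77 and 2.03 FPKM in wildtype (difference 0.68, limma adjusted p = 0.0575, and 0.145 after scaling). It was called without wildtype 1 (0.70, adjusted p = 0.0405), in a fit that called 3.55% of all genes. Over 26 alternative fits Tmem38b was called in 2, with limma adjusted p values from 0.0405 to 0.345. Loxl4, a lysyl oxidase, averaged 6.19 ± 0.973 FPKM in Has-tKO and 3.87 ± 0.900 FPKM in wildtype (0.57, limma adjusted p = 0.130). Mia2, a cargo receptor for large secreted proteins, averaged 1.95 ± 0.0414 FPKM in Has-tKO and 1.24 ± 0.399 FPKM in wildtype (0.41, limma adjusted p = 0.230). Pcolce, the main enhancer of propeptide removal, averaged 73.6 ± 4.94 FPKM in Has-tKO and 96.6 ± 8.65 FPKM in wildtype without overlap (-0.39, limma adjusted p = 0.201).

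**Figure D5:**
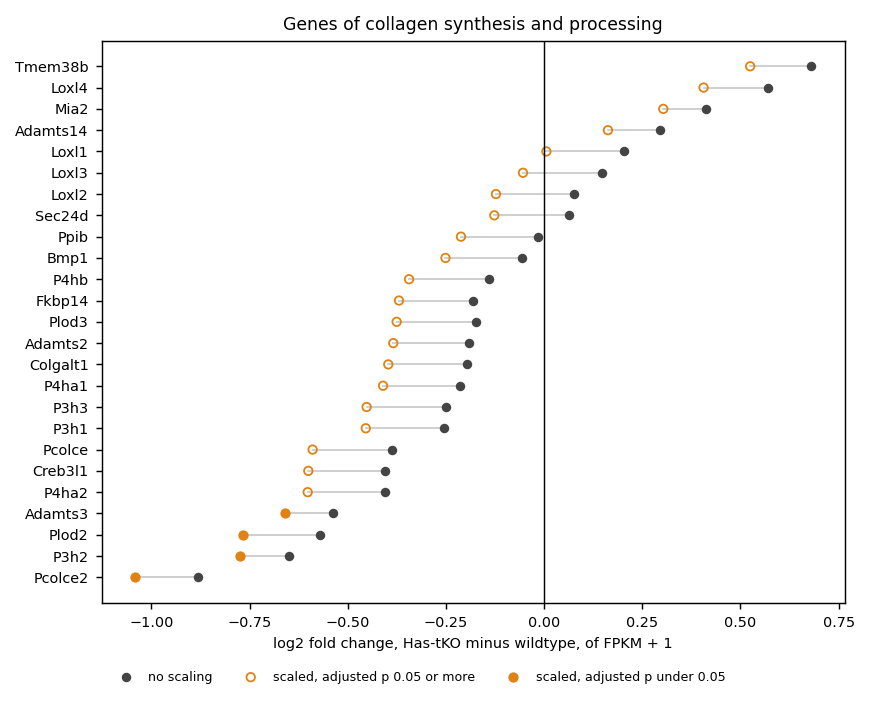
Difference between Has-tKO and wildtype on the log2(FPKM + 1) scale for the 25 tested genes of collagen synthesis and processing, without scaling (grey) and after median-ratio scaling (orange, filled at an adjusted p under 0.05). Scaling moves all 25 to the left, and the 4 filled points are Adamts3, Plod2, P3h2 and Pcolce2.

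Collagen receptors showed no called gene. Of 10 genes 6 are named and 4 were tested. Limma called 0 of the 4 in either fit, beside 1.78% of all tested genes and 2.84% after scaling. An unadjusted p under 0.05 was found for 1, Lair1, beside 16.7% of all tested genes and 18.6% after scaling. With 4 genes tested, these counts cannot be told apart from the shares over all genes. Itgb1, the beta chain shared by the collagen-binding integrins, averaged 87.0 ± 10.4 FPKM in Has-tKO and 74.6 ± 21.4 FPKM in wildtype (difference 0.27, limma adjusted p = 0.582). Itga1, an alpha chain of a collagen-binding integrin, averaged 6.34 ± 1.43 FPKM in Has-tKO and 6.50 ± 2.10 FPKM in wildtype (0.0013, adjusted p = 0.998, and -0.17 after scaling). Ddr2, a receptor kinase for fibrillar collagen, averaged 22.3 ± 3.46 FPKM in Has-tKO and 22.4 ± 7.94 FPKM in wildtype (0.06, adjusted p = 0.922, and -0.13 after scaling). Lair1, an inhibitory collagen receptor of leukocytes, had 5.21, 4.00, 3.68 and 4.30 FPKM in Has-tKO, against 0.699, 2.78, 3.10 and 2.23 FPKM in wildtype (0.79, limma adjusted p = 0.130). Itga10, Itga11, Ddr1 and Mrc2 carry no name.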

How the data were processed

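RNA of 8 cultures, 4 Has-tKO and 4 wildtype, was depleted of ribosomal RNA (100 ng input) and made into unstranded Nextera libraries, per the labels' protocols. The deposited values are FPKM per locus, per the file headers (76557 loci, 26689 of them without a name). bcl2fastq, fastp, HISAT2, StringTie and DESeq2 with GRCm39 and hg38 are listed, without versions or roles, per the submitters' processing notes. Columns were assigned to libraries by name, and no 2 columns were identical. For low FPKM values, ratios of each other library to wildtype 1 were compared with whole multiples of a step. At the best of many steps tried, 11.9% to 13.1% lay within 0.05 of a whole multiple. Chance gives 10% for 1 fixed step and more for the best of many. Ratios of small counts need not be whole either, so this check cannot decide whether the depth can be recovered. The depth was not recovered, and the counting error has no known size. From these values log2(FPKM + 1) was fitted with limma 3.58.1 (intensity trend) in R 4.3.3, with genotype as the one term, two-sided, Benjamini-Hochberg adjusted over all tested named genes. For a name on several loci (67 names) the locus with the highest mean was used. Median-ratio size factors came from 7435 named loci at 1 FPKM or more in all libraries. The fit was tested on simulated data before use. Every member is named. Values in each library are given for called members, for the top 3 of a class by mean, and for small classes, and pathway genes are those called in either fit plus up to 4 others with the smallest p of each list. Col13a1, Col4a3 and other chains under the filter, Tcfl5, Plod3, Adamts2 and P4ha1 were added outside that rule after their values were seen. Members and lists were chosen with earlier results of these data known. Alternatives were scaling, pseudocount, filter, summed loci, left-out libraries, a replicate block and no trend. Promoter windows come from RefSeq on GRCm38.p6, a different build from GRCm39, and neighbourhoods from GENCODE M21, used without coordinates. Identical replicate numbers mark no shared mouse.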

Additional observations from a re-analysis of the deposited data

Results flagged for a closer look

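In 7 of 72 groups of 4 libraries 1 library stood apart from the other 3 by most of the range of the group. Chance gives about 1 in 20 groups, a rate that does not apply to 2 of the 7 (Col19a1 and Col6a4), in which 3 libraries are listed at 0 and any other value stands apart by construction. Has-tKO 4 was low for Col4a5 (1.16 FPKM, against 3.12 to 3.48 in the other Has-tKO libraries) and for Itgb1 (71.5 FPKM, against 90.8 to 93.9). Wildtype 1 was low for Col6a1 (388 FPKM, against 662 to 714 in the other wildtype libraries) and for Plod2 (19.1 FPKM, against 33.8 to 34.6). Has-tKO 2 was low for Tmem38b (2.52 FPKM, against 3.87 to 4.13). Col19a1 was at 0.0136 FPKM in Has-tKO 1 and Col6a4 at 0.0137 FPKM in wildtype 1, with the other 3 libraries of the genotype listed at 0.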

How the results depend on the processing

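Of 10 tested chains limma called 0 in the unscaled fit. It called 1 after median-ratio scaling (Col24a1) and 1 when wildtype 1 and Has-tKO 4 were dropped together (Col15a1). With 1 library left out it called 0 to 1, with or without scaling. Those fits called 0.0518% (without Has-tKO 1) to 3.58% (without wildtype 3) of all genes without scaling. With scaling they called 0.249% (without wildtype 4) to 3.61% (without wildtype 3). Of the synthesis genes limma called 0 without scaling, 4 with it, and 1 when 1 FPKM was asked of all libraries. It called 1 when wildtype 1 and Has-tKO 4 were both dropped (1 with scaling too). With 1 library left out it called 0 to 2 synthesis genes, with or without scaling. The share of all genes called was 2.02% with 1 FPKM in all libraries, 3.32% with both dropped and 2.7% with scaling too. The fibrillar median of -0.25 was -0.42 after scaling and -0.42 with scaling and replicate block (-0.34 to -0.17 with 1 library left out, -0.57 to -0.35 with scaling too). The FACIT median of -0.72 was -0.34 without the filter, which adds 2 chains near 0, and -0.87 to -0.50 with 1 library left out (-1.09 to -0.55 with scaling too). The sign of Col6a3 turned after scaling (-0.16, and -0.16 with scaling and replicate block) and in the scaled fit without either wildtype 1 or Has-tKO 4 (-0.040). It lay between -0.10 and 0.18 with 1 library left out and between -0.27 and -0.038 with scaling too. When both were dropped Col2a1 had 0.12 (0.045 scaled) and Col4a5 0.18 (0.12 scaled). With 1 library left out Col27a1 ranged from -0.15 to 0.0535 (as low as -0.26 scaled), Col2a1 from -0.37 to 0.029 (as low as -0.65 scaled) and Col4a5 from -0.25 to 0.10. Ddr2 turned to -0.13 after scaling (-0.13 with the block too), -0.14 with both dropped and -0.21 scaled, and ranged from -0.24 to 0.19 and, scaled, from -0.30 to -0.042. Itga1 turned to -0.17 after scaling (-0.17 with the block too), -0.20 with both dropped and -0.27 scaled, and ranged from -0.23 to 0.12 and, scaled, from -0.28 to -0.082. Itgb1 ranged from -0.031 to 0.14 in the scaled fits with 1 library left out, and reached 0.37 without scaling. The cause of these turns was not tested. The labels give same-numbered libraries only a number in common, and whether they share a batch was not tested. The correlations of their deviations were -0.0826, 0.311, -0.121 and -0.0588, and 2 of 8 libraries correlated best with their own number. With the replicate block 0 chains and 1 synthesis gene (Pcolce2) were called, against 0 and 0 without it, and all genes called numbered 147, against 176 without it. All collagen receptor counts were 0. No value could be given for the transmembrane class, since none of its chains passed the filter. The depth is unknown, so chains under 1 FPKM carry an error that cannot be stated.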
